A study of Mus musculus with 8 samples.

Results

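The genes followed here encode the proteins that read N6-methyladenosine (m6A) on RNA and the enzymes that remove it. They are the YTH-domain readers Ythdc1, Ythdc2, Ythdf1, Ythdf2 and Ythdf3, the IGF2BP readers Igf2bp1, Igf2bp2 and Igf2bp3, and the demethylases Fto and Alkbh5. They were chosen by name, through the symbols that GENCODE M21 gives the gene identifiers of the count tables, and are 10 of 54446 genes counted. C57BL/6 mouse embryonic stem cells were sampled, and their nuclear RNA was sequenced after removal of ribosomal RNA. Mettl14 and Mettl3 encode the 2 core subunits of the enzyme that writes m6A, METTL3 being the catalytic one, and the series examined how nuclear RNA changes when either is knocked out. The 8 libraries form 4 groups of 2, named in the labels as Mettl14 control, Mettl14 cKO (conditional knockout), Mettl3 control and Mettl3 cKO. All groups were kept in serum medium with the cytokine LIF, the GSK3 inhibitor CHIR99021 and the MEK inhibitor PD0325901. The exons deleted, the Cre driver, the time after deletion and the number of clones were not given in the sources used here. Whether samples of one group were grown as separate cultures is not in the labels either; the p-values rest on the spread among these libraries alone, and it may be technical.

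Readers and erasers act on a mark that the METTL3 and METTL14 complex has laid down. The YTH domain holds the methylated adenosine in a pocket; YTHDC1 does so in the nucleus, where it acts in splicing, RNA export and the silencing of retrotransposons in embryonic stem cells, whereas the YTHDF proteins are mainly cytoplasmic and hasten the decay of the RNAs they bind. IGF2BP proteins bind RNA through KH domains and are known for keeping their targets stable in embryonic and tumour cells, and FTO and ALKBH5 oxidise the methyl group off, using iron and alpha-ketoglutarate.

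RefSeq gave promoter windows (GRCm38.p6, from 250 bases before the start of the gene to 50 after it) for 7 of the 10 genes. The 4 below are shown because Ythdc1, Igf2bp2 and Alkbh5 are the genes whose changes differed most between the knockouts, and Fto is the demethylase for which edgeR with TMM scaling called no change. Each is the longest stretch of the window ahead of the start that no annotated exon of the gene covers, written along the gene's strand, 5′ to 3′. Capitals mark matches, on either strand, to the 7 motifs searched. These were GGGCGG, known as the GC box; CCAAT, found upstream of many genes; CACGTG, the E-box of basic helix-loop-helix factors; TGACG, the core of the cyclic AMP response element (CRE); CCGGAAG, bound by ETS factors; TATAAA, a form of the TATA box; and the motif of NRF1. None of these motifs contains another. The stretches lie at chr5:86804016-86804220 (plus strand) for Ythdc1, chr16:22163300-22163549 (minus strand) for Igf2bp2, chr11:60537433-60537682 (plus strand) for Alkbh5 and chr8:91313275-91313524 (plus strand) for Fto.
Ythdc1: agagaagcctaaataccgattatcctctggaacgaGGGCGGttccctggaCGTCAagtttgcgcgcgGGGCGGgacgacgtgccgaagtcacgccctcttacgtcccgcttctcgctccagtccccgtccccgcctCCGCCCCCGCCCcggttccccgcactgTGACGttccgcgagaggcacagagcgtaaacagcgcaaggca
Igf2bp2: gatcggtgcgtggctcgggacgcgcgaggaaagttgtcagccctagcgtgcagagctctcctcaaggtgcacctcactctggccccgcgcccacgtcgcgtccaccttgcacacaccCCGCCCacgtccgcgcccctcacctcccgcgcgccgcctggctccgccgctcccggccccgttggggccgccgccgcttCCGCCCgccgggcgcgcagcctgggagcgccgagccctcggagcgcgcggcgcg
Alkbh5: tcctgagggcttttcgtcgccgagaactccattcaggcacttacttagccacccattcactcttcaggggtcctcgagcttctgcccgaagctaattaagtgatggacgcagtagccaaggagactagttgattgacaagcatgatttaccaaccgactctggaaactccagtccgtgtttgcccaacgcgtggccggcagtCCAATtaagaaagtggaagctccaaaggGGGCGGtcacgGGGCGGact
Fto: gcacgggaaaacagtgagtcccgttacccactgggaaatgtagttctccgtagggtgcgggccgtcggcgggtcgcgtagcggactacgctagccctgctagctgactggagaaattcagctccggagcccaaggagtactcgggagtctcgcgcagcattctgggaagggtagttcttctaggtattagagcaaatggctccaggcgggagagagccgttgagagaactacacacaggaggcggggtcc
Within the whole window of 300 bases, Ythdc1 held 5 GC boxes, Igf2bp2 held 2 and Alkbh5 held 2, while Fto held 0 of them and 0 of the other motifs. The GC box was in 35.6% of the 27018 mouse promoter windows of the same length, the CCAAT box in 37.8%, the E-box in 7.1%, the CRE core in 20.7%, the ETS motif in 9.09%, the TATA box in 14.1% and the NRF1 motif in 4.68%. Ythdc1 also held 2 CRE cores and Alkbh5 held 1 CCAAT box. The ETS motif and the TATA box were found in 0 of the 7 windows. These are letter matches only, and the Alkbh5 window lies inside the longer gene span that GENCODE draws. Of the 7 motifs searched, only the GC box was common to the windows of Ythdc1, Igf2bp2 and Alkbh5. Those windows were 64.0%, 76.7% and 55.3% G or C, and that of Fto was 60.7%. Any tie of a motif to the changes was not tested. Ythdf1 (3 matches) and Ythdf2 (2 matches) also held the GC box. Igf2bp3, lower in both knockouts with TMM scaling, held 0 GC boxes, 1 CCAAT box and 2 E-boxes. Ythdf1 held 2 CCAAT boxes, 1 E-box, 1 CRE core and 1 NRF1 motif besides its GC boxes.

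Total counts ran from 17235889 to 20086128 per library, and each of the 10 genes had between 375 and 12676 counts in a library. Levels are given in CPM, that is, counts relative to the TMM-scaled library size. The RNA of the knocked-out genes was lower in their cKO libraries but not lost: Mettl14 stood at 58.2 and 54.9 CPM in Mettl14 control against 27.7 and 30.1 in its cKO, and Mettl3 at 37.8 and 36.0 CPM in Mettl3 control and at 19.8 and 18.5 in Mettl3 cKO. The Mettl3 line had similarly little Mettl14, with 30.0 and 26.7 CPM in its control and 29.5 and 28.7 in its cKO. Pluripotency markers were present in all groups, but the groups differed in them: Pou5f1, a defining factor of embryonic stem cells, stood at 547 to 569 CPM in Mettl14 control, 239 to 241 in Mettl14 cKO, 77.6 to 81.4 in Mettl3 control and 103 to 105 in Mettl3 cKO. The 10 pluripotency markers summed to 3693 to 3705 CPM in Mettl14 control, 2775 to 2789 in Mettl14 cKO, 1520.4 to 1542 in Mettl3 control and 1448 to 1455 in Mettl3 cKO. The 15 fibroblast markers summed to 3207 to 3227, 4608 to 4610.4, 11988.9 to 12312 and 13805 to 13947 CPM in the same order, above the pluripotency markers in all groups but Mettl14 control. The gene for fibronectin, Fn1, carried much of that sum, at 2466 to 2488 CPM in Mettl14 control and 3044 to 3046 in Mettl14 cKO. Without it the other 14 summed to 738 to 742, 1564 to 1565, 6328 to 6530.1 and 7641 to 7737 CPM, so that only the groups of the Mettl3 line still lay above their pluripotency sums. The fibroblast markers Dcn, Lum, Thy1 and Twist2 each stood at 2.17 CPM or less in the Mettl14 line and 4.95 or less in the Mettl3 line. Others were far higher: Col1a1 stood at 265 to 339 CPM in the Mettl14 line and 2664 to 3301 in the Mettl3 line. Col1a2 stood at 184 to 538 and 1738 to 2154 CPM. The 10 primitive endoderm markers, 1 of which is also a fibroblast marker, summed to 963 to 969.8, 1559 to 1581, 2138 to 2166 and 2373 to 2384 CPM. Nearly all of this came from the matrix genes Sparc, Col4a1 and Lama1 (940.4 to 2332 CPM together), whereas the defining factors Gata4, Gata6, Sox17, Sox7 and Foxa2 each had 0.0981 to 3.97 CPM in a library. No marker of these lists was at 0 throughout a group. Genes with any count ran from 31803 in replicate 1 of Mettl14 control to 40752 in replicate 2 of Mettl3 control. The 1731 olfactory and vomeronasal receptor genes summed to 115 to 126 CPM in Mettl14 control and 185 to 199.9 in Mettl14 cKO. In the Mettl3 line they summed to 431 to 437 CPM in the control and 247 to 257 in the cKO. The part of these levels and counts in the values below was not tested. In such bulk samples, fewer cells of a type and less RNA per cell cannot be told apart.

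Each knockout was compared with the control of its own line, the change in one was compared with the change in the other, and the controls were compared with each other; all came from 1 edgeR fit of 21782 genes. A gene is called where the Benjamini-Hochberg adjusted p of edgeR's quasi-likelihood test is under 0.05, and that p is written below as the edgeR adjusted p. Contrasts of the controls and of the changes use the same control libraries as the knockout contrasts, so they are not independent of them.

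Ythdc1 (chromosome 5, 86804221 to 86836659, plus strand, mm10), the nuclear reader, fell in Mettl14 cKO and rose in Mettl3 cKO. It stood at 259 and 254 CPM in Mettl14 control, against 147 and 149 in Mettl14 cKO. In the Mettl3 line it stood at 193 and 179.9 CPM in the control and at 213 and 219 CPM in the cKO. Mettl14 control was highest and Mettl14 cKO lowest, with the Mettl3 cKO above its control between them, and no 2 groups overlapped. The log2 fold change was -0.79 ± 0.03 (SE) in Mettl14 cKO (edgeR adjusted p = 1.95e-46) and 0.21 ± 0.03 in Mettl3 cKO (edgeR adjusted p = 9.53e-08). With upper-quartile scaling in place of TMM the rise in Mettl3 cKO was 0.10. The Mettl14 change was lower than the Mettl3 change by 1.00 ± 0.05 on the log2 scale (edgeR adjusted p = 9.03e-42). Ythdc1 holds stretches of about 200 bases that are at least 95% identical to other transcripts, Nasp among them, and how the counting treated reads with several matches is not stated in the sources used here.

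Ythdc2 (chromosome 18, 44827746 to 44889724, plus strand), an RNA helicase best known for its part in the entry of germ cells into meiosis, changed by less than could be called in either knockout. Its levels were 80.3 and 80.3 CPM in Mettl14 control, against 78.2 and 79.1 in Mettl14 cKO, 50.1 and 54.7 in Mettl3 control, and 53.7 and 50.8 in Mettl3 cKO. The Mettl3 line lay below the Mettl14 line throughout, and its cKO overlapped its control. The 95% interval of the log2 fold change was -0.127 to 0.067 in Mettl14 cKO and -0.11 to 0.103 in Mettl3 cKO (edgeR adjusted p = 0.677 and 0.974). As shares of the 2 YTHDC genes' counts per exon length, Ythdc1 made up 67.5% ± 0.252 (SD, n = 2) in Mettl14 control but 55.0% ± 0.0347 in Mettl14 cKO. In the Mettl3 line it made up 69.8% ± 2.38 in the control and 72.9% ± 1.1 in the cKO. Such a share is taken within a library and does not depend on the scaling between libraries. No test of these shares was made.

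The 3 YTHDF genes had smaller changes than Ythdc1 in Mettl14 cKO, and in Mettl3 cKO all of them rose, Ythdf3 without a call under upper-quartile scaling. Ythdf2 (chromosome 4, 132184912 to 132212303, minus strand), whose protein recruits the CCR4-NOT deadenylase, stood at 126 and 127 CPM in Mettl14 control, against 106 and 113 in Mettl14 cKO. In the Mettl3 line it stood at 80.0 and 87.4 CPM in the control and at 102 and 107 in the cKO. Libraries of control and cKO did not overlap in either line, and the cKO groups of the lines overlapped each other. Ythdf2 fell by 0.21 ± 0.04 on the log2 scale in Mettl14 cKO (edgeR adjusted p = 7.04e-06) and rose by 0.32 ± 0.04 in Mettl3 cKO (edgeR adjusted p = 5.97e-10). The rise was 0.21 with upper-quartile scaling, and the difference between the changes was -0.54 ± 0.06 (edgeR adjusted p = 8.53e-14). Near-identical copies of Ythdf2, Gm6823 and Gm8401, had mean levels of 0.007 and 0.114 CPM.

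Ythdf1 (chromosome 2, 180904377 to 180920949, minus strand), described as a promoter of translation, stood at 71.3 and 71.7 CPM in Mettl14 control, against 67.0 and 66.5 in Mettl14 cKO. It stood at 57.3 and 52.1 CPM in Mettl3 control and at 66.0 and 65.4 in Mettl3 cKO. The change in Mettl14 cKO, -0.10 ± 0.05, was not called (edgeR adjusted p = 0.121), although the libraries did not overlap; with RLE scaling it was called at -0.13. The rise of 0.26 ± 0.05 in Mettl3 cKO was called (edgeR adjusted p = 2.95e-05), and was 0.15 with upper-quartile scaling. Between knockouts the change differed by -0.36 ± 0.07 (edgeR adjusted p = 1.96e-05), or -0.20 with upper-quartile scaling.

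Ythdf3 (chromosome 3, 16183212 to 16217037, plus strand) varied least of the 10 genes, its highest group mean being 1.1 times its lowest. It stood at 149 and 146 CPM in Mettl14 control, against 139 and 146 in Mettl14 cKO, 139 and 138 in Mettl3 control, and 148 and 157 in Mettl3 cKO. The groups of the Mettl14 line nearly met, and the Mettl3 cKO lay above its control. Mettl14 cKO differed from its control by -0.05 ± 0.04 (edgeR adjusted p = 0.288), and Mettl3 cKO from its control by 0.14 ± 0.04 (edgeR adjusted p = 0.0019). The call in Mettl3 cKO was lost with upper-quartile scaling (0.03), with a minimum count of 50 (0.06), with DESeq2 (0.12) and without replicate 2 of Mettl3 cKO (0.11). The 2 changes were -0.19 ± 0.05 apart (edgeR adjusted p = 0.00183), a call also lost with upper-quartile scaling (-0.04) and a minimum count of 50 (-0.05). Of the 3 YTHDF genes' counts per exon length, Ythdf2 made up 36.1% in Mettl14 control and 30.2% in Mettl3 control, and Ythdf3 made up 35.8% and 42.5%.

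**Figure D1:**
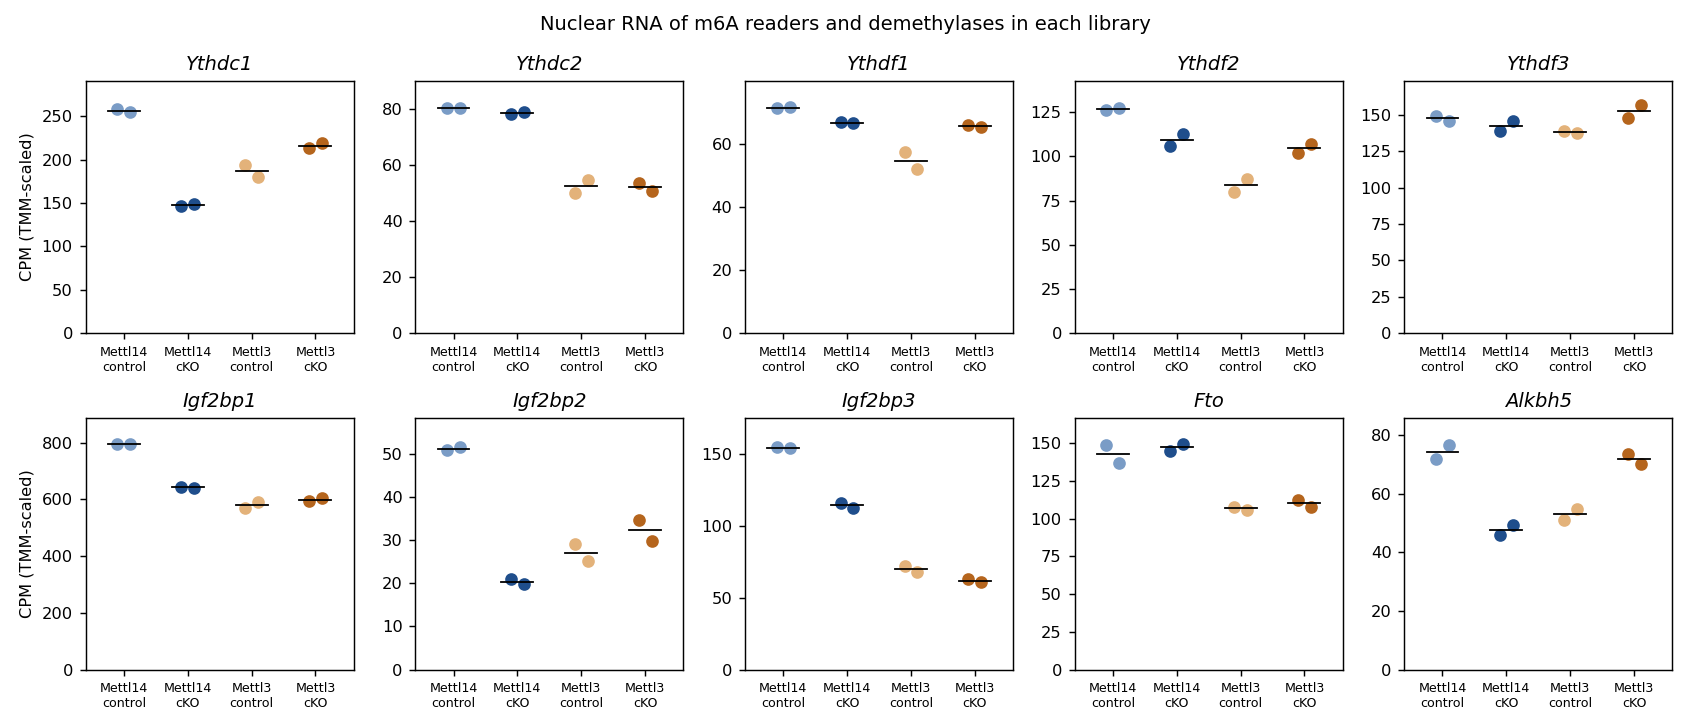
Levels of the 10 genes in CPM (vertical axis, TMM-scaled, from 0) in each library of the 4 groups; points are libraries and black lines are group means. Ythdc1, Igf2bp2 and Alkbh5 are lowest in Mettl14 cKO and higher in Mettl3 cKO than in Mettl3 control, and Ythdf3 varies least.

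All IGF2BP genes fell in Mettl14 cKO, Igf2bp2 the most. Igf2bp2 (chromosome 16, 22059009 to 22163299, minus strand), a reader with roles in metabolism and development, stood at 50.7 and 51.4 CPM in Mettl14 control, against 20.9 and 19.8 in Mettl14 cKO. It stood at 29.0 and 25.1 CPM in Mettl3 control and at 34.7 and 29.8 in Mettl3 cKO. Mettl14 control lay far above all other groups, and no 2 neighbouring groups overlapped. The log2 fold change in Mettl14 cKO was -1.33 ± 0.08, a ratio of 0.398 to control (edgeR adjusted p = 2.06e-34). In Mettl3 cKO it was 0.25 ± 0.07 (edgeR adjusted p = 0.00789). That rise was not called with upper-quartile scaling (0.14), a minimum count of 50 (0.17) or DESeq2 (0.23), nor without replicate 2 of Mettl3 control (0.15) or replicate 1 of Mettl3 cKO (0.14). The difference between the changes was -1.58 ± 0.11 (edgeR adjusted p = 8.36e-28).

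Igf2bp1 (chromosome 11, 95957163 to 96005940, minus strand), the family member with the highest level per exon length, stood at 796 and 794 CPM in Mettl14 control, against 645 and 640.3 in Mettl14 cKO. It stood at 570.0 and 592 CPM in Mettl3 control and at 593 and 605 in Mettl3 cKO. Libraries of control and cKO did not overlap in either line, but those of the Mettl3 line lay close together. Igf2bp1 fell by 0.31 ± 0.02 on the log2 scale in Mettl14 cKO (edgeR adjusted p = 1.39e-22). In Mettl3 cKO the change was 0.04 ± 0.02 and not called (edgeR adjusted p = 0.207), and with upper-quartile scaling it was called in the other direction, at -0.07. It was called higher without a low-count filter (0.15) and without replicate 2 of Mettl3 control (0.08). The changes differed by -0.35 ± 0.04 (edgeR adjusted p = 1.73e-16), or -0.19 with upper-quartile scaling.

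Igf2bp3 (chromosome 6, 49085223 to 49214957, minus strand), the most oncofetal of the family, was the only one of the 10 genes called lower in both knockouts by edgeR with TMM scaling. It stood at 155 and 154 CPM in Mettl14 control, against 116 and 113 in Mettl14 cKO. It stood at 72.1 and 68.1 CPM in Mettl3 control and at 63.0 and 60.7 in Mettl3 cKO. The groups did not overlap, and both groups of the Mettl3 line lay below both of the Mettl14 line. The log2 fold change was -0.44 ± 0.04 in Mettl14 cKO (edgeR adjusted p = 1.16e-18) and -0.18 ± 0.05 in Mettl3 cKO (edgeR adjusted p = 0.00222). The second call was lost without a low-count filter (-0.07) and without replicate 1 of Mettl3 control (-0.13) or replicate 2 of Mettl3 cKO (-0.15). Between knockouts the difference was -0.26 ± 0.06 (edgeR adjusted p = 0.000432), and -0.10 with upper-quartile scaling and -0.12 with a minimum count of 50, neither called. Igf2bp3 shares 1529 of its 8159 exon bases with Malsu1 on the other strand, which had a mean of 21.4 CPM, and the strand setting of the counting is not given, so its values are uncertain.

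Per exon length, Igf2bp1 made up 76.1% ± 0.0664 of the family's counts in Mettl14 control, 79.8% ± 0.306 in Mettl14 cKO, 83.0% ± 1.21 in Mettl3 control and 83.8% ± 0.934 in Mettl3 cKO. The share of Igf2bp2 was 6.39% ± 0.0647 in Mettl14 control against 3.31% ± 0.0903 in Mettl14 cKO, and 5.06% ± 0.584 in Mettl3 control against 5.90% ± 0.646 in Mettl3 cKO. Igf2bp3 made up 17.6% ± 0.00169 and 16.9% ± 0.216 in the Mettl14 line, and 11.9% ± 0.625 and 10.3% ± 0.287 in the Mettl3 line. The family was thus mostly Igf2bp1 in every library, and the share of Igf2bp2 was lowest in Mettl14 cKO.

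The demethylases went different ways. Alkbh5 (chromosome 11, 60536381 to 60558512, plus strand), a nuclear m6A demethylase, stood at 71.9 and 76.5 CPM in Mettl14 control, against 45.9 and 49.2 in Mettl14 cKO. It stood at 51.0 and 54.9 CPM in Mettl3 control and at 73.3 and 70.1 in Mettl3 cKO. Mettl14 control and Mettl3 cKO overlapped at the top, and Mettl14 cKO was lowest. Alkbh5 fell by 0.64 ± 0.06 on the log2 scale in Mettl14 cKO (edgeR adjusted p = 1.22e-20) and rose by 0.44 ± 0.05 in Mettl3 cKO (edgeR adjusted p = 8.23e-12), the largest rise among the 10 genes. The changes differed by -1.08 ± 0.08 (edgeR adjusted p = 2.33e-26). Both calls held in all 16 alternatives tried for each knockout.

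Fto (chromosome 8, 91313525 to 91668439, plus strand), which also removes the methyl group from m6Am next to the cap, stood at 149 and 137 CPM in Mettl14 control, against 145 and 149.5 in Mettl14 cKO. It stood at 108 and 106 CPM in Mettl3 control and at 113 and 108 in Mettl3 cKO. Control and cKO overlapped in the Mettl14 line and nearly met in the Mettl3 line. The 95% interval of the log2 fold change was -0.034 to 0.118 in Mettl14 cKO and -0.033 to 0.125 in Mettl3 cKO (edgeR adjusted p = 0.416 and 0.471). It was called higher in Mettl14 cKO with a minimum count of 50 (0.10) and in Mettl3 cKO without a low-count filter (0.15). The changes differed by -0.004, with an interval of -0.113 to 0.106, and by 0.15, then called, with upper-quartile scaling. Alkbh5 made up 53.0% ± 2.51 of the pair's counts per exon length in Mettl14 control and 41.3% ± 0.62 in Mettl14 cKO. Its share was 51.9% ± 1.64 in Mettl3 control and 58.6% ± 0.0571 in Mettl3 cKO, so the share was lower than control in one knockout and higher in the other without overlap of the libraries. By raw counts Alkbh5 made up less of the pair, at 34.2% in Mettl14 control and 24.4% in Mettl14 cKO. In the Mettl3 line its raw-count share was 33.1% in the control and 39.4% in the cKO.

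**Figure D2:**
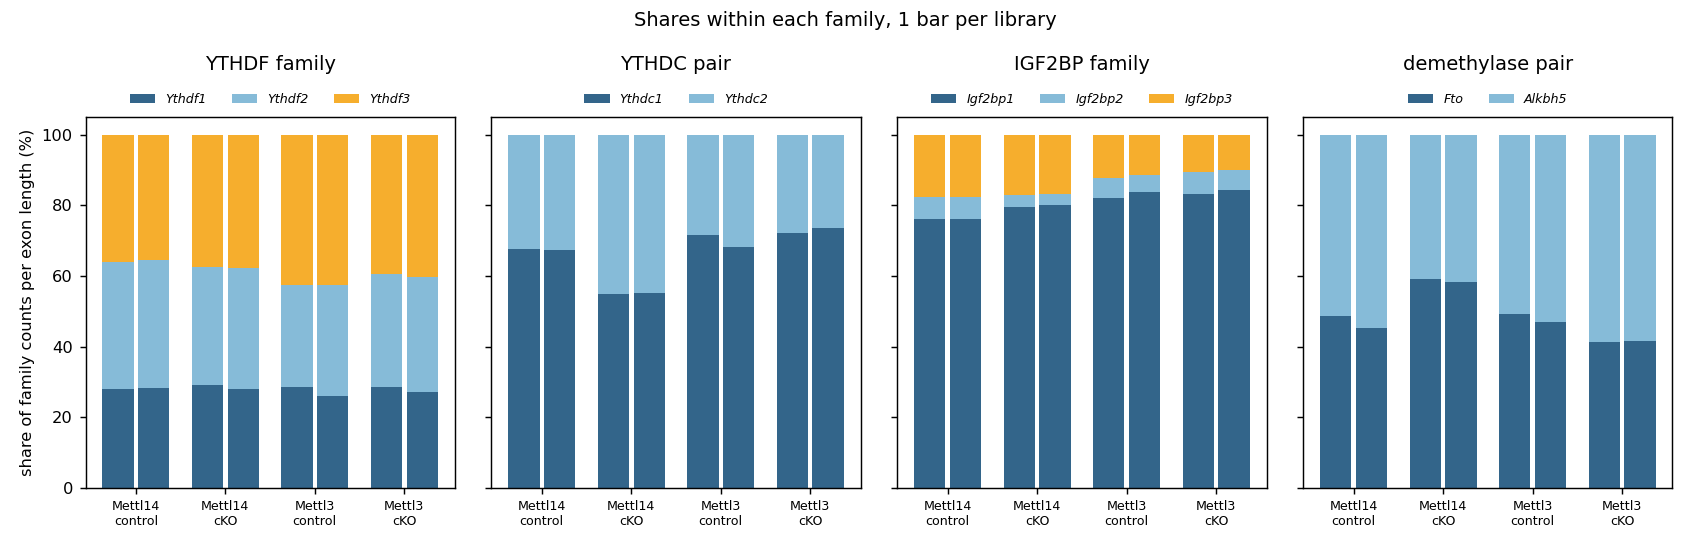
Share of each gene in the counts of its family per exon length (vertical axis, percent), 1 bar per library, 2 bars per group. In Mettl14 cKO the shares of Ythdc1 (55.0%) and Alkbh5 (41.3%) in their pairs lie below those of Mettl14 control (67.5% and 53.0%).

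Counted together, 0 of the 10 genes rose and 6 fell in Mettl14 cKO, both with TMM and with upper-quartile scaling (RLE scaling added Ythdf1 to those that fell). Of all 21782 genes tested, 18.0% were called higher and 22.4% lower. These 10 genes are abundant. Among the 5546 genes whose average log2 CPM was 5 or more, a group added after seeing the data, 25.9% were called higher and 50.8% lower. The count of 6 of 10 is therefore near what abundant genes showed. Their median log2 fold change was -0.26, against -0.12 for the abundant genes and 0.03 for all tested. The sizes of some changes stood further out: 0.6% of the abundant genes had a lower log2 fold change than Igf2bp2, 4.99% a lower one than Ythdc1 and 8.56% a lower one than Alkbh5. Igf2bp3 had 18.6% below it and Ythdf2 39.2%. In the same comparison 8 of 10 pluripotency markers fell and 1 rose, and 11 of 14 fibroblast markers tested rose and 0 fell, as did 2 (Col4a1 and Sparc) and 0 of 9 primitive endoderm markers tested. Their part in these values was not tested.

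In Mettl3 cKO 6 of the 10 genes rose and 1 fell, or 4 rose and 2 fell with upper-quartile scaling, which called Igf2bp1 lower and gave no call for Ythdf3 and Igf2bp2. Without a low-count filter 8 rose, Igf2bp1 and Fto among them, and 0 fell. Of all genes tested 15.1% were called higher and 5.78% lower, and of the abundant genes 35.4% and 10.1%. Rises made up 72.3% of the calls with TMM and 31.8% with upper-quartile scaling, which moved the median of all genes by -0.11. The rises of Ythdc1, Ythdf1, Ythdf2 and Alkbh5 held in all 16 alternatives. The median log2 fold change of the 10 genes was 0.18, against 0.08 for the abundant genes and 0.03 for all tested. Alkbh5 exceeded 98.2% of the abundant genes and Ythdf2 exceeded 94.3%, while 4.87% lay below Igf2bp3. Here 5 of 10 pluripotency markers fell and 1 (Pou5f1) rose, and 7 of 14 fibroblast markers rose and 1 fell. Of 9 primitive endoderm markers tested, 3 rose and 1 fell. Their part in these values was not tested.

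**Figure D3:**
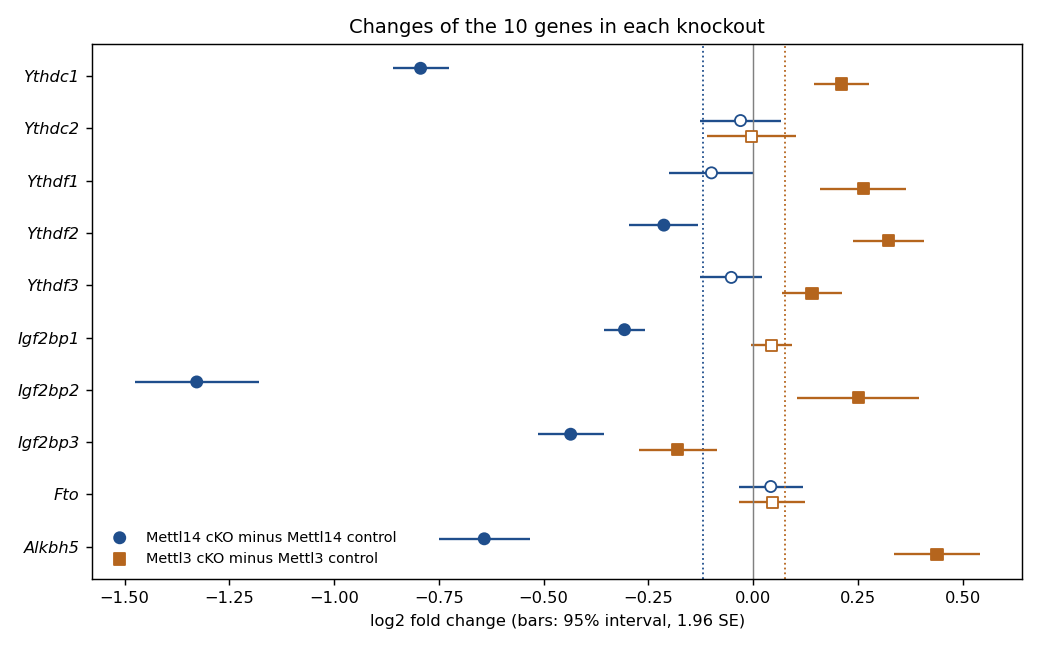
Log2 fold change of each gene in Mettl14 cKO (circles) and Mettl3 cKO (squares), with 95% intervals; filled symbols are called and open ones are not, and dotted lines are the medians of the abundant genes (-0.12 and 0.08). Ythdc1, Ythdf2, Igf2bp2 and Alkbh5 are called lower in Mettl14 cKO and higher in Mettl3 cKO.

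The change in Mettl14 cKO was lower than that in Mettl3 cKO for 8 of the 10 genes and higher for 0, whereas with upper-quartile scaling it was lower for 6 (without Ythdf3 and Igf2bp3) and higher for 1 (Fto). Of all genes tested 12.7% were called higher and 20.5% lower, and of the abundant genes 16.8% and 51.0%. Calls in the higher direction made up 38.4% with TMM and 60.6% with upper-quartile scaling, which moved the median of all genes by 0.16. The median over the 10 genes was -0.36, against -0.18 for the abundant genes and 0.02 for all tested. Of the abundant genes 0.4% had a lower difference than Igf2bp2, 1.93% a lower one than Alkbh5 and 2.67% a lower one than Ythdc1. Ythdf3 (48.0%) lay in the middle of the abundant genes although it was called.

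**Figure D4:**
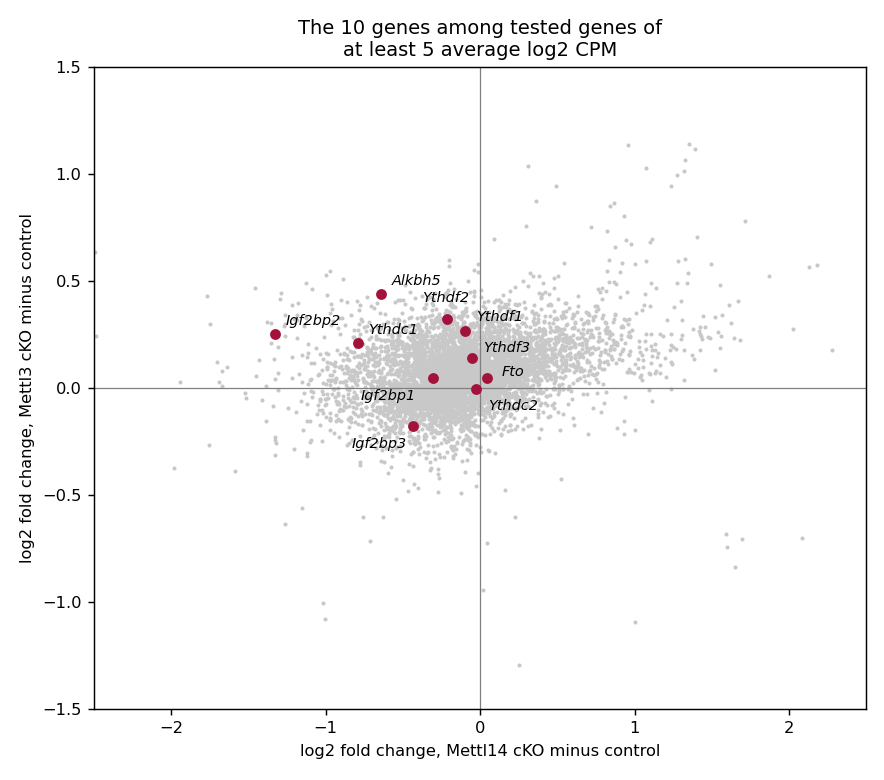
Log2 fold change in Mettl14 cKO (horizontal axis) against that in Mettl3 cKO (vertical axis) for 5542 genes whose average log2 CPM was 5 or more (grey; 4 more lie outside the axes), with the 10 genes in red. Igf2bp2, Ythdc1 and Alkbh5 lie to the upper left, and Igf2bp3 lies below 0 on both axes.

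All 10 genes were higher in Mettl14 control than in Mettl3 control by edgeR with TMM and a minimum count of 10. Ythdf3 was instead called lower with upper-quartile scaling (-0.12) and with a minimum count of 50. Of all genes tested 33.6% were called higher and 34.1% lower. Of the abundant genes 68.9% were called higher, so the direction, with TMM and a minimum count of 10, was that of most abundant genes. Calls in the higher direction made up 49.7% with TMM and 37.4% with upper-quartile scaling, which moved the median of all genes by -0.22. The median log2 difference of the 10 genes was 0.47, against 0.44 for the abundant genes. Igf2bp3 differed most, at 1.14 ± 0.04 (edgeR adjusted p = 1.5e-53), followed by Igf2bp2 at 0.92 ± 0.07 (edgeR adjusted p = 4.76e-24). These exceeded 87.2% and 78.4% of the abundant genes. The other YTH genes and Igf2bp1 ranged from Ythdf1 at 0.39 to Ythdc2 at 0.62, apart from Ythdf3 at 0.10 ± 0.04 (edgeR adjusted p = 0.0194). Ythdf3 was not called with DESeq2, nor without replicate 1 of Mettl14 control or either replicate of Mettl3 control. Fto differed by 0.42 and Alkbh5 by 0.49. All 10 pluripotency markers were higher in Mettl14 control, with a median log2 difference of 1.22 and the largest for Pou5f1 (2.81). Of 14 fibroblast markers tested 12 were lower and 1 (Twist1, 0.55) was higher. The part of both lists in these values was not tested.

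**Figure D5:**
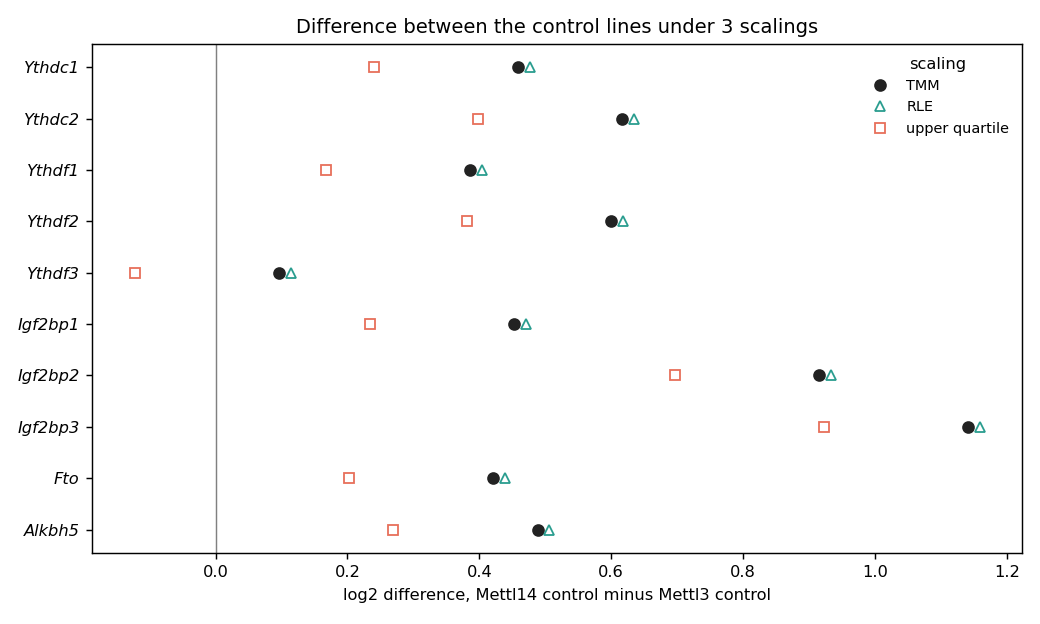
Log2 difference of each gene between Mettl14 control and Mettl3 control (horizontal axis) under TMM (filled circles), upper-quartile (open squares) and RLE scaling (open triangles). All points lie above 0 except that of Ythdf3 with upper-quartile scaling (-0.12).

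Compared with each other per exon length in Mettl14 control, Igf2bp1 was the most abundant at 82.1 ± 0.155 CPM per kilobase (SD, n = 2). Ythdf2 at 27.7 ± 0.169 and Ythdf3 at 27.5 ± 0.426 overlapped, and Ythdf1 followed at 21.6 ± 0.0833. Igf2bp3 at 18.9 ± 0.0174 and Ythdc1 at 18.8 ± 0.21 also overlapped. The demethylases Alkbh5 at 12.4 ± 0.54 and Fto at 11.0 ± 0.627 were lower, and Ythdc2 at 9.05 ± 0.00245 and Igf2bp2 at 6.90 ± 0.0629 were lowest. The order depends on the division by exon length. By raw counts Fto stood above Alkbh5, with 65.8% of the pair's counts in Mettl14 control. The range across groups was widest for Igf2bp2 and Igf2bp3, whose highest group mean was 2.51 and 2.5 times the lowest, followed by Ythdc1 (1.73), Alkbh5 (1.56), Ythdc2 (1.54) and Ythdf2 (1.51). Ythdc1, Igf2bp2 and Alkbh5 had the same order of groups, from Mettl14 control through Mettl3 cKO and Mettl3 control down to Mettl14 cKO.

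For the gene with the widest range in each class, the 3 protein-coding genes nearest in pattern were sought among 9505 whose average log2 CPM was 3 or more, by the distance between the 4 group means on the log2 scale, each centred on its own mean. Nearest to Ythdc1, which ranged over 0.79, were Ube2e1 (distance 0.03), Zbed3 (0.03) and Sept11 (0.05). Rpl28 (0.10), Bex3 (0.10) and Ywhab (0.13) were nearest to Igf2bp2, which ranged over 1.32. Btbd3 (0.07) and Tcf7 (0.08) were among the 3 nearest to Alkbh5, which ranged over 0.64. A likeness over 4 group means is a description of these libraries only, and with a minimum of 5 in place of 3 only Sept11, Rpl28, Bex3 and Ywhab remained among the nearest.

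The counts of companion genes below are to be read against all genes tested, of which 18.0% rose and 22.4% fell in Mettl14 cKO and 15.1% rose and 5.78% fell in Mettl3 cKO, and against the abundant ones, of which 25.9% and 50.8%, and 35.4% and 10.1%, did so. No list was tested as such, and nothing particular to a list is read from its count. Among these genes, the m6A writer complex was mixed. Of its 8 members, the knocked-out genes included, 2 rose and 3 fell in Mettl14 cKO, and 4 rose and 1 fell in Mettl3 cKO (1 rose and 2 fell with upper-quartile scaling). Zc3h13, a subunit that anchors the complex in the nucleus, fell by 1.04 ± 0.03 on the log2 scale in Mettl14 cKO (edgeR adjusted p = 3.39e-64). Wtap, the adaptor subunit, rose by 0.26 ± 0.04 in Mettl3 cKO (edgeR adjusted p = 7.97e-08; 0.15 with upper-quartile scaling). The median log2 fold changes of the complex were -0.03 and 0.09. Of 4 methyltransferases outside the complex 2 fell in Mettl14 cKO, Mettl5 among them (-0.89 ± 0.09, edgeR adjusted p = 5.85e-17), and 0 were called in Mettl3 cKO.

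Of 12 other proteins proposed to bind m6A, 10 fell and 0 rose in Mettl14 cKO, where 50.8% of abundant genes fell, with a median of -0.485. In Mettl3 cKO 5 fell and 2 rose (10.1% and 35.4% of abundant genes did), with a median of -0.07, or 10 fell and 1 rose with upper-quartile scaling. Prrc2a fell by 1.26 ± 0.04 in Mettl14 cKO (edgeR adjusted p = 5.2e-67) and rose by 0.24 ± 0.03 in Mettl3 cKO (edgeR adjusted p = 1.55e-10; 0.13 with upper-quartile scaling). Of the 11 CCR4-NOT genes, whose complex YTHDF2 recruits, 9 fell in Mettl14 cKO (median -0.27; 50.8% of abundant genes fell) and 4 rose and 0 fell in Mettl3 cKO (median 0.15), or 1 rose and 2 fell with upper-quartile scaling. The 4 of 11 are near the 35.4% of abundant genes that rose. Cnot3 fell by 0.93 ± 0.05 in the former (edgeR adjusted p = 3.23e-41) and Cnot8 rose by 0.34 ± 0.05 in the latter (edgeR adjusted p = 5.48e-07; 0.22 with upper-quartile scaling).

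Among 8 partners of YTHDC1 in splicing, export and silencing, 7 fell in Mettl14 cKO (median -0.26; 50.8% of abundant genes fell), and in Mettl3 cKO 1 rose and 0 fell (median -0.05), or 0 rose and 6 fell with upper-quartile scaling. Khdrbs1, an RNA-binding splicing regulator, fell by 0.77 ± 0.03 in Mettl14 cKO (edgeR adjusted p = 2.21e-48), and Setdb1, an H3K9 methyltransferase, rose by 0.15 ± 0.03 in Mettl3 cKO (edgeR adjusted p = 0.000103) and was not called with upper-quartile scaling (0.04). Of 3 partners of YTHDC2, the exonuclease gene Xrn1 fell by 0.16 ± 0.03 in Mettl14 cKO (edgeR adjusted p = 5.52e-05), and 0 were called in Mettl3 cKO, or 1 lower with upper-quartile scaling. All 6 partners of IGF2BP proteins fell in Mettl14 cKO (median -0.48), where 50.8% of abundant genes fell. In Mettl3 cKO 2 rose and 3 fell (median -0.05), or 1 and 4 with upper-quartile scaling. The rises are near the 35.4% of abundant genes that rose there, and 10.1% of abundant genes fell. Pabpc1, the cytoplasmic poly(A)-binding protein, fell by 1.20 ± 0.02 in Mettl14 cKO (edgeR adjusted p = 1.9e-87) and rose by 0.32 ± 0.02 in Mettl3 cKO (edgeR adjusted p = 1.31e-25; 0.21 with upper-quartile scaling).

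Of 7 oncofetal genes of the Lin28 and let-7 axis, to which IGF2BP genes are tied through let-7 sites, 5 fell in Mettl14 cKO (median -0.24) and 2 rose in Mettl3 cKO (median 0.10), with 0 called there under upper-quartile scaling. Of the abundant genes, 50.8% fell in the former and 35.4% rose in the latter. Hmga1 fell by 0.80 ± 0.04 in Mettl14 cKO (edgeR adjusted p = 1.96e-44), and Lin28a rose by 0.22 ± 0.05 in Mettl3 cKO (edgeR adjusted p = 0.000968), a call lost with upper-quartile scaling (0.10). Among the 7 other AlkB homologues, relatives of Fto and Alkbh5 with other substrates, 1 rose and 2 fell in Mettl14 cKO (median -0.10) and 2 rose in Mettl3 cKO (median 0.18), or 1 with upper-quartile scaling. Alkbh1 fell by 0.13 ± 0.03 in Mettl14 cKO (edgeR adjusted p = 0.00141; -0.08 with upper-quartile scaling) and rose by 0.18 ± 0.04 in Mettl3 cKO (edgeR adjusted p = 2.86e-05), the rise being uncalled with upper-quartile scaling (0.07). The median over all genes tested was 0.03 in both knockouts, and that of the abundant genes -0.12 in Mettl14 cKO and 0.08 in Mettl3 cKO.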

How the data were processed

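Per the labels' protocols, nuclear RNA was taken up in Trizol, ribosomal RNA was removed with RiboMinus, and libraries came from a SMARTer Stranded Total RNA-Seq kit (v2). The deposited values are the authors' raw read counts per gene, 1 table per library with 54446 genes. The tools named in the submitters' processing notes are CASAVA, Trimmomatic 0.38, HISAT2 2.1.0 and HTSeq, with mm10 as the build. Which annotation release, strand setting and treatment of reads with several matches HTSeq used was not given in the sources used here. Identifiers were matched without version to GENCODE M21 (54409 matched, 37 did not, and 0 lines named no gene). Groups come from the sample titles.

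The filterByExpr filter (minimum count 10) kept 21782 genes, all 10 genes described among them. edgeR 4.0.16 (R 4.3.3) was fitted to all 8 libraries with 4 group means, TMM scaling, robust glmQLFit and glmQLFTest. It had 4 residual degrees of freedom and a common dispersion of 0.000571. The fit also borrows its estimate of spread across genes, so a p-value does not rest on a gene's 4 degrees of freedom alone. p-values were adjusted by Benjamini-Hochberg over all genes tested, and calls use 0.05. Intervals are 95% intervals from the standard error. Before averaging, samples of a group were compared: r was at least 0.995 on the log2 scale, and counts differed by more than sampling noise (chi-square per degree of freedom 1.43 to 2.08). The fit was tested on simulated counts in which a small set of genes changed, as many up as down, in a single cKO group. Other genes did not differ between groups there, unlike in these data, so the scaling was not tested by it. Alternatives were other scalings and filters, DESeq2 1.42.0, limma 3.58.1 (voom), a replicate block, 4-library fits and leaving out each library. Shares and levels between genes use counts divided by union exon length, and their values depend on it. By raw counts, for example, Ythdc1 made up 76.2% of the YTHDC pair in Mettl14 control and 65.3% in Mettl14 cKO.

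The 10 genes, the companion and marker lists and the tests were chosen with earlier results of these data known. Named in the text are all 10 genes, Mettl3 and Mettl14, at most the 2 genes with the smallest p of each companion list in a contrast, and the 3 genes nearest in pattern to the widest-ranging gene of each class, 1 of which is not reported here. Pou5f1, Malsu1, Nasp, Gm6823, Gm8401, Fn1 and the other single markers are named outside this rule, and were chosen after their values were seen.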

Additional observations from a re-analysis of the deposited data

Results flagged for a closer look

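The changes in the knockouts differed, by the test of the difference in 1 edgeR fit, for 8 of the 10 genes. The difference, Mettl14 change minus Mettl3 change on the log2 scale, was -1.58 for Igf2bp2, -1.08 for Alkbh5, -1.005 for Ythdc1, -0.54 for Ythdf2, -0.36 for Ythdf1, -0.35 for Igf2bp1, -0.26 for Igf2bp3 and -0.19 for Ythdf3. Of these, Igf2bp2, Alkbh5, Ythdc1 and Ythdf2 were called in opposite directions in the knockouts with TMM scaling, while Igf2bp3 was called lower in both. The rise of Igf2bp2 in Mettl3 cKO was not called with upper-quartile scaling (0.14). The fall of Igf2bp3 in Mettl3 cKO was not called without a low-count filter (-0.07). Ythdf1 and Ythdf3 were called in Mettl3 cKO and not in Mettl14 cKO, and Igf2bp1 in Mettl14 cKO and not in Mettl3 cKO. The difference itself was called lower for 51.0% and higher for 16.8% of the abundant genes. Among all genes tested it was called lower for 20.5% and higher for 12.7%. With upper-quartile scaling it was called lower for 6 of the 10 genes and higher for 1. The control libraries of the lines differed in all 10 genes, and the line and the gene knocked out cannot be told apart in this difference.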

How the results depend on the processing

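Of 630 values of the 10 genes under alternatives, 600 kept their side of the threshold and, where called, their direction. Of the rest, 20 lost the call, 5 gained it and 5 reversed. The 600 include uncalled values that changed sign, such as Ythdc2 in Mettl14 cKO (-0.03, and 0.01 with upper-quartile scaling). The falls of Ythdc1, Ythdf2, Igf2bp1, Igf2bp2, Igf2bp3 and Alkbh5 in Mettl14 cKO held in all 16 alternatives. With a minimum count of 50, 1 of the 10 genes (Fto) was called higher in Mettl14 cKO. In Mettl3 cKO the number called lower was 2 with upper-quartile scaling and 0 without a low-count filter (8 were then called higher), and ran from 0 to 1 when single libraries were left out (0 without replicate 1 of Mettl3 control and without replicate 2 of Mettl3 cKO). In the difference between knockouts 1 gene was called higher with upper-quartile scaling and 1 with a minimum count of 50; between controls 1 was called lower with each. Values that reversed were Igf2bp1 in Mettl3 cKO with upper-quartile scaling (-0.068), Fto in the difference with upper-quartile scaling (0.15) and a minimum count of 50 (0.14), and Ythdf3 between controls with the same settings (-0.12 and -0.12). DESeq2 called 2166 genes in Mettl3 cKO against 4552 and 4714 in the difference against 7238. The cause was not tested.

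With the replicate number as a replicate block, 8832, 4616, 7271 and 14751 genes were called in Mettl14 cKO, Mettl3 cKO, the difference and the controls, against 8801, 4552, 7238 and 14759 without it, and no call among the 10 genes changed. Deviations of same-numbered libraries across 10094 genes correlated at -0.033 to 0.109, so the numbers were not taken as pairs. With 2 libraries a group, the residual degrees of freedom number 4, and where a library was left out the lone sample was assumed to vary like the other groups. Nuclear RNA counted per gene does not give protein levels or total mRNA, and the strand setting bears on Igf2bp3.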
